A study of Mus musculus with 10 samples.

Results

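Of 114366 merged regions of open chromatin in mouse bone marrow progenitors, 517 (0.452%) were found in lymphoid-primed multipotent progenitors (LMPP) and in wild-type (WT) monocyte-dendritic cell progenitors (MDP) only. These LMPP-MDP regions were chosen by detection: they had a peak in both LMPP and both WT MDP libraries. They had no peak in any library of long-term hematopoietic stem cells (LT-HSC) or of common dendritic cell progenitors (CDP). LT-HSC come before LMPP in this series of stages and CDP come after MDP. The libraries of MDP lacking the transcription factor IRF8 (IRF8KO) had no part in the rule and served as the readout, although their peaks were among those merged. Merged from the WT lists alone, 519 regions met the rule, and 66.1% of these were in both IRF8KO libraries. Because detection in the 8 WT libraries chose the regions, values in those libraries are given as a description, with no test.

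The assay was ATAC-seq: a transposase inserts sequencing adapters wherever DNA is accessible. The 10 libraries formed 5 groups of 2 replicates, all from marrow of C57BL/6 mice after magnetic enrichment and flow sorting. The IRF8KO cells were MDP, sorted as lineage-negative, IL-7R-negative and Sca-1-negative cells with CD117 and CD115. WT LT-HSC were lineage-negative cells with CD117, Sca-1 and CD150 but without CD48 or CD135. WT LMPP were lineage-negative cells with CD117, Sca-1 and CD135, and a label field that names them short-term stem cells was not followed because titles and surface markers name LMPP. WT MDP carried the same surface phenotype as IRF8KO MDP. WT CDP were lineage-negative, IL-7R-negative and Sca-1-negative cells with intermediate CD117 and with CD115 and CD135. CD115 is the product of Csf1r and CD135 that of Flt3. The design text calls the WT libraries biological duplicates. The labels tie no library to an animal, and they give neither the Irf8 allele nor the animals' age.

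Accessible regions away from gene starts are often enhancers, stretches of DNA that transcription factors bind to control a gene that may lie far away. As stem cells mature, sets of enhancers open and close with the factors that each stage makes. IRF8 works with PU.1 and other partners and is needed for monocytes and dendritic cells, and mice without it make an excess of neutrophils.

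Total tags per library ranged from 4790046 to 10166833, and peaks per library from 31325 in LT-HSC replicate 1 to 69598 in CDP replicate 1. LT-HSC replicate 1 stood apart from the other libraries, with 19.3% of its tags in peaks against 38.1% in LT-HSC replicate 2 and at least 43.7% elsewhere. The IRF8KO libraries had 50728 and 54277 peaks and the WT MDP libraries 62130 and 64515. Tags in peaks were 43.7% and 43.9% in IRF8KO MDP and 51.3% and 53.7% in WT MDP. Near 5 marker genes of MDP (Csf1r, Cx3cr1, Irf8, Mpo and Ly6c2) lay 61 regions, of which IRF8KO MDP held 30 and 34 and WT MDP 38 and 37. LT-HSC held 5 and 11 of these, LMPP 17 and 20, and CDP 50 and 45. Of 86 regions near 5 stem cell markers (Procr, Slamf1, Mecom, Hlf and Fgd5), LT-HSC held 20 and 54, LMPP 57 and 66, WT MDP 29 and 29, and CDP 22 and 20. The MDP marker regions thus were most often found in CDP and the stem cell marker regions in LMPP, so peak numbers near markers do not single out the labelled stage. Mpo, a granule enzyme gene of myeloid cells, had 0 regions in either LT-HSC library and 2 in every MDP and CDP library. In 6 marker lists of other marrow cells, both IRF8KO libraries held fewer regions than both WT MDP libraries. For the erythroid list they held 22 and 35 of 116, against 45 and 45. Of 34 regions nearest to Irf8 itself, IRF8KO MDP held 13 and 16 and WT MDP 21 and 17, and peak positions alone cannot check the genotype.

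A small number of LMPP-MDP regions held an annotated gene start, and for these the underlying sequence could be read from RefSeq (GRCm38.p6). They were 13 of the 496 regions on chromosomes with start sites in the table used. These are the members whose DNA can be set beside their state without IRF8, and only some are printed, as examples. The regions at Insyn1 and the noncoding gene Gm14170, not printed, had a peak in neither IRF8KO library, as had the first pair below. The 250 bases before the start are printed on the strand of the gene, with motif matches in capitals. The first pair, at Lpin1 (phosphatidate phosphatase, chr12:16610967-16611216, minus strand) and Wnt5b (a WNT ligand, chr6:119544348-119544597, minus strand), had a peak in neither IRF8KO library. The regions at Hmgxb4 (chr8:75015972-75016221, plus strand), Sftpb (surfactant protein B, chr6:72304360-72304609, plus strand) and Ankrd22 (chr19:34166042-34166291, minus strand) had a peak in both.
Lpin1: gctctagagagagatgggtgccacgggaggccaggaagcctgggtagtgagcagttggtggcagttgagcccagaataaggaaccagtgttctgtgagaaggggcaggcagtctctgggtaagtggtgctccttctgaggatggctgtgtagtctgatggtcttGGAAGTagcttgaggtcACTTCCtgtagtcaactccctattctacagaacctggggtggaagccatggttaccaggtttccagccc
Wnt5b: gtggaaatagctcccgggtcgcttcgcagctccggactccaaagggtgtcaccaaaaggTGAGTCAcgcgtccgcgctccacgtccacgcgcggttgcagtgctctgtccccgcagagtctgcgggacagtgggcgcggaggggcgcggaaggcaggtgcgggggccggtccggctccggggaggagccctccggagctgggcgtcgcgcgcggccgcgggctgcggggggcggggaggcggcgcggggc
Hmgxb4: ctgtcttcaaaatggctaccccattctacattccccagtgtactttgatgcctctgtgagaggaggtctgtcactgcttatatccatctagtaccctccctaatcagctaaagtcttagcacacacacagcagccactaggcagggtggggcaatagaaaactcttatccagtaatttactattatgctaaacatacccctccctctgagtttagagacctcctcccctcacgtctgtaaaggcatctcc
Sftpb: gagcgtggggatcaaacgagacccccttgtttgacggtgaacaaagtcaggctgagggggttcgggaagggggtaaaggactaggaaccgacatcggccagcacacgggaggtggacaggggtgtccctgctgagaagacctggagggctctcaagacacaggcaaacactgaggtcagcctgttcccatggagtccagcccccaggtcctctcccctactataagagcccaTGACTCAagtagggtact
Ankrd22: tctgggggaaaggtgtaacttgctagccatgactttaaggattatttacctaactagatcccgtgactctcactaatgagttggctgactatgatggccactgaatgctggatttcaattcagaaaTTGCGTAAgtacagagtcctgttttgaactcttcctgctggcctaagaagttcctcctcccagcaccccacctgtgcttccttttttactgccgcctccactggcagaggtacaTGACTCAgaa

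Lpin1 held the ETS core GGAAGT in both orientations, at positions 165 and 182 counted from the first printed base. Wnt5b, Sftpb and Ankrd22 each held an AP-1 match (TGANTCA), and Ankrd22 also a C/EBP match (TTGCNNAA). Hmgxb4 matched none of the 11 motifs searched on both strands. The others were GAGGAAGT for PU.1, which holds the ETS core, and GGAANNGAA for the joint ETS and IRF element. For IRF alone GAAANNGAA was searched, for RUNX proteins the letters TGTGGT, and for GATA proteins the letters AGATAA. The E-box was searched as CAGCTG, the core of the CTCF motif as AGGGGGCG, and a site like that of HOX and MEIS proteins as TGATTGA. Some of these overlap one another in a sequence. AP-1 and C/EBP letters each stood in 3 of the 14 start windows of the 13 regions, against 6.78% and 9.62% of all 32619 windows. All 3 windows with AP-1 letters are among those printed. The ETS core stood in 2 of the 14 and in 19.8% of all windows. IRF and ETS-IRF letters each stood in 1 of the 14, in a second start window of Rapgef2 and in that of the noncoding gene Gm13481. The Rapgef2 region was in both IRF8KO libraries. The Gm13481 window had 156 of its 250 bases in the region, and its ETS-IRF match lay outside it, so no ETS-IRF letters stood in the windows' parts within the regions. The shares over all windows were 7.17% for IRF and 6.89% for ETS-IRF. With 14 windows these counts are a description of single promoters.

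The Sftpb region, around the start of a gene known from lung, stood at row percentiles of 51.1 and 65.8 in IRF8KO MDP, 66.7 and 61.6 in WT MDP and 82.1 and 49.2 in LMPP. A row percentile is the position of a peak's row in its list as a percent of the list's length, so that small values are near the top. The lists gave no strength per peak, and row position was used in its place. That rows run from strong to weak is an assumption, which the lists do not state. Rows ran in 405 to 925 blocks per list, each running through the chromosomes in order, and the largest block took 2.41% to 4.61% of its list. Differences in percentile between rows of the same block carry no information. The Ankrd22 region had 78.4 and 61.9 in IRF8KO MDP and 75.3 and 72.1 in WT MDP, and the Hmgxb4 region had 55.3 and 48.9 in IRF8KO MDP and 67.1 and 64.5 in WT MDP. The Lpin1 region had no peak in IRF8KO MDP and stood near the end of both WT MDP lists, at 94.1 and 98.6, although it was at 44.9 and 40.2 in LMPP. Wnt5b had 86.2 and 61.7 in WT MDP and 58.5 and 97.5 in LMPP. The genotypes overlapped at the Sftpb and Ankrd22 regions, and both IRF8KO values lay ahead of both WT values at Hmgxb4.

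The regions came mostly from the lower part of the lists. In LMPP their median row percentile was 66.3 and 64.0, and in WT MDP 74.5 and 71.4, with lowest values of 8.97, 5.19, 18.9 and 19.1. Only 48 of the 517 (9.28%) were in the first 50% of rows of both WT MDP lists, and 103 (19.9%) in the first 50% of both LMPP lists. Both LMPP percentiles lay ahead of both WT MDP percentiles at 214 regions, and both WT MDP ahead of both LMPP at 106. Replicate lists ordered the regions less alike than they ordered all regions. Across regions, the Spearman correlation of the replicates' percentiles was 0.721 in LMPP and 0.546 in WT MDP for the 517, against 0.911 and 0.919 for all regions of both replicates. Regions are not independent replicates, and the 517 span a narrower part of the list.

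**Figure D1:**
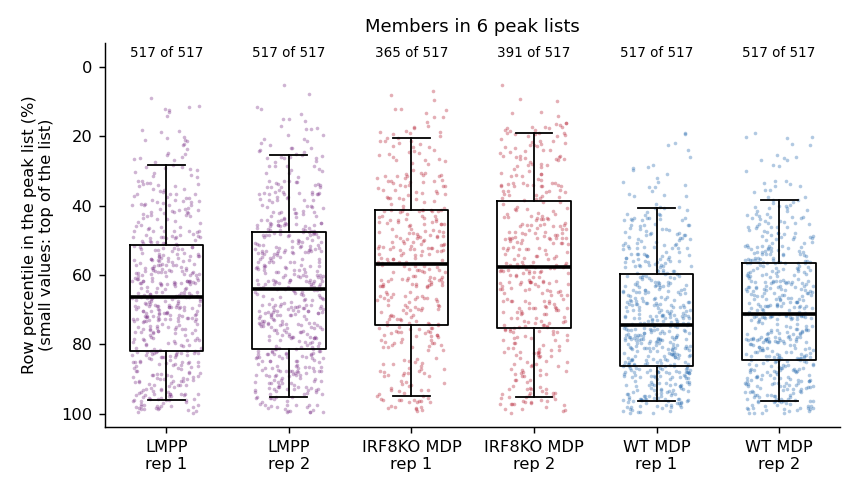
Row percentile of each LMPP-MDP region (points; top of a peak list is at the top of the axis) in the LMPP, IRF8KO MDP and WT MDP libraries, with boxes from the lower to the upper quartile, a line at the median and whiskers at the 5th and 95th percentiles. Medians are 66.3 and 64.0 in LMPP, 57.0 and 57.8 among the 365 and 391 regions found in IRF8KO MDP, and 74.5 and 71.4 in WT MDP.

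The rule was missed through a single library by many regions. A peak in LT-HSC replicate 2 alone kept out 475 regions and one in LT-HSC replicate 1 alone 9. Those peaks had median row percentiles of 72.44 in replicate 2 and 91.19 in replicate 1. The lack of a peak in WT MDP replicate 1 or 2 kept out 374 and 235 regions, and the lack of one in LMPP replicate 1 or 2 141 and 117. A peak in CDP replicate 1 or 2 alone kept out 243 and 172, and those CDP peaks had median row percentiles of 83.03 and 86.76. The members with the highest mean percentile over the LMPP and WT MDP lists, just inside the rule, lay in the genes Anks1 (89.5 and 95.2 in LMPP, 95.5 and 95.9 in WT MDP), the splicing regulator Mbnl2 (95.01 and 98.9, 94.9 and 83.9) and Apbb2 (91.9 and 97.2, 85.8 and 97.5). All 3 also had a peak in both IRF8KO lists. The boundary of the set thus ran mostly among peaks in the lower part of their lists, and which regions are members depends on single libraries.

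Most LMPP-MDP regions were still found without IRF8. IRF8KO replicate 1 held 365 of the 517 (70.6%, Wilson 95% interval 66.5 to 74.4) and replicate 2 held 391 (75.6%, 71.7 to 79.1). Both held 341 (66.0%, 61.8 to 69.9), one held 74 (14.3%) and neither held 102 (19.7%, 16.5 to 23.4). Of all 53073 regions of both WT MDP libraries, 70.5% were in both IRF8KO libraries and 19.4% in neither. Intervals cover the counting of regions only, not the spread between animals. In this setting the share in neither library was thus near the background. It was further above it when the rule asked for a peak in 1 WT MDP library only. Without WT MDP replicate 1, 34.0% of members were in neither, against 25.1% of all regions of replicate 2, and without replicate 2, 33.2% against 24.6%. The share was also higher without CDP replicate 1 (24.3%), without LT-HSC replicate 2 (22.8%) and with LT-HSC free (23.7%), each against 19.4%. With peaks cut to 200 bp it was just below the background (22.39% against 22.43%). Moreover, the IRF8KO lists were shorter than the WT MDP lists. With all lists cut to the length of the shortest, 237 regions were members. Of these, 70.5% were in both, against 78.7% of all WT MDP regions, and 18.1% in neither, against 14.8%. Cutting also changed which regions were members, and the part of list length alone was not tested.

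The LMPP-MDP regions were set against other classes of regions. Most of these differ by 1 stage, and the class of MDP and CDP only differs at both LMPP and CDP. In their shares the LMPP-MDP regions lay nearest to those found in MDP alone. Of 1836 regions of WT MDP only, 65.3% were in both IRF8KO libraries and 22.5% in neither. Of 5976 regions shared by LMPP, MDP and CDP, 60.8% were in both and 25.4% in neither. Of 7853 regions of MDP and CDP only, 31.8% were in both and 56.6% in neither. Of 779 regions of LT-HSC, LMPP and MDP but not CDP, 53.9% were in both and 24.6% in neither. Regions of LMPP only were seldom found in IRF8KO MDP, with 2.95% of 4739 in both and 91.2% in neither. The LMPP-only regions are absent from WT MDP by definition, and the IRF8KO lists held few of them too.

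At a matched position in the WT MDP lists, the LMPP-MDP regions were found without IRF8 at a higher share than WT MDP regions in general. With the mean WT MDP percentile between 50 and 75, 166 of 207 LMPP-MDP regions (80.2%, 74.2 to 85.1) were in both IRF8KO libraries, against 56.3% of all WT MDP regions there. The single libraries held 82.6% and 86.5% of the LMPP-MDP regions and 62.2% and 66.1% of all WT MDP regions. Between 75 and 100 the shares were 46.1% of 245 LMPP-MDP regions (40.0 to 52.4) and 32.8% of all. Between 25 and 50, 57 of 60 (95%) were in both, against 79.2% of all, and the 5 regions between 0 and 25 were all in both. The regions of MDP only had like shares, at 93.9%, 79.7% and 48.6% in these bins from 25 to 100. Regions that MDP shared with CDP only had 45.6%, 28.3% and 17.8% there. The higher share was thus not particular to regions shared with LMPP. The difference between 50 and 75, 23.9 percentage points, fell to 9.25 when all lists were cut to the length of the shortest.

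**Figure D2:**
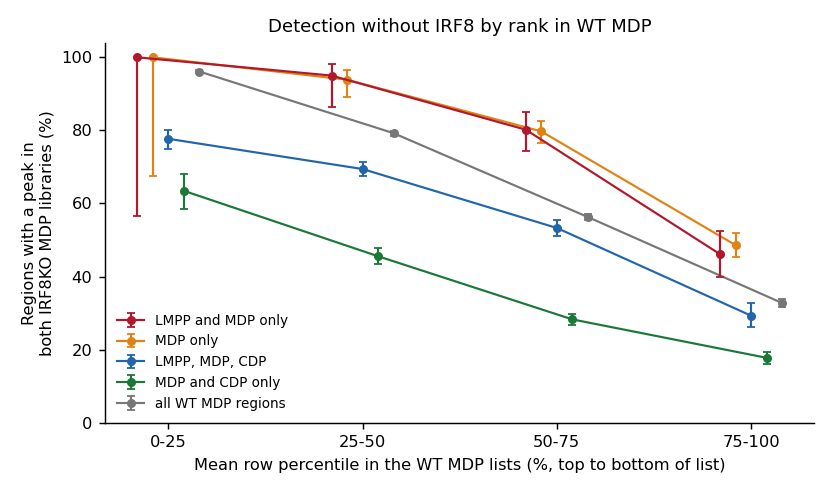
Percent of regions with a peak in both IRF8KO MDP libraries (vertical axis) by bin of 25 points of the mean WT MDP row percentile (horizontal axis, top of the list at left), for LMPP-MDP regions and 4 other sets, with Wilson 95% intervals as bars. The LMPP-MDP line falls over the bins at 100%, 95%, 80.2% and 46.1%, beside the line of MDP only and above that of all WT MDP regions (96.1%, 79.2%, 56.3% and 32.8%).

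Regions not found without IRF8 stood lower in the WT MDP lists. The 102 in neither IRF8KO library had median percentiles of 80.9 and 83.8 in WT MDP, and the 341 in both had 69.1 and 64.7. In LMPP the same sets were alike, at 66.9 and 65.1 for those in neither and 65.8 and 62.6 for those in both. The dependence on WT MDP position was not particular to LMPP-MDP regions. Of all WT MDP regions with a mean WT MDP percentile between 0 and 25, 2.74% were in neither IRF8KO library. That share was 13.9% between 25 and 50 and 44.5% between 75 and 100. Of all WT MDP regions, 96.1% between 0 and 25 and 79.2% between 25 and 50 were in both. Of the 48 LMPP-MDP regions in the first 50% of both WT MDP lists, 46 were in both IRF8KO libraries and 2 in neither. One of those 2 was the region of best mean percentile of the whole set (chr2:14960840-14961996). It lay inside Cacnb2, a calcium channel subunit gene, at 20.5 and 15.6 in LMPP and 33.3 and 35.6 in WT MDP. It was absent from both IRF8KO lists, so that the region of best mean percentile in the LMPP and WT MDP lists was one of those not detected.

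The next best members without a peak in IRF8KO MDP stood lower in the WT MDP lists. A region 18.2 kb from Hyls1, a gene of cilium formation (chr9:35587627-35588868), had 12.2 and 17.99 in LMPP and 59.6 and 74.2 in WT MDP. One inside the cation channel gene Trpc6 (chr9:8672787-8673571) had 26.1 and 22.7 in LMPP and 64.4 and 57.4 in WT MDP, and a peak of LT-HSC replicate 2 lay 18 bp away without overlap. One inside Otogl (chr10:107809700-107811354) had 22.3 and 25.9 in LMPP and 62.1 and 70.9 in WT MDP. The fifth, the other one in the first 50% of both WT MDP lists, lay 116 kb from Stc2, which encodes a secreted glycoprotein (chr11:31485185-31485941), at 51.9 and 45.2 in LMPP and 41.3 and 48.8 in WT MDP. At 3 of these 4 regions LMPP lay ahead of WT MDP in both replicates.

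Where LMPP-MDP regions were found in all 4 MDP libraries, they stood closer to the top of the IRF8KO lists than of the WT lists. Over these 341 regions the median row percentile was 54.4 and 53.5 in IRF8KO MDP and 69.1 and 64.7 in WT MDP, so the libraries of the genotypes did not overlap. The means were 53.9 ± 0.64 in IRF8KO MDP and 66.9 ± 3.13 in WT MDP (SD, n = 2 each), a difference of -13.0 percentile points (IRF8KO minus WT). With replicates paired by number the differences were -14.7 and -11.2. WT MDP values chose the regions and IRF8KO values did not, and a region had to be in both IRF8KO lists to be counted, so the difference is given without a test. At 271 of the 341 (79.5%) the mean percentile was lower in IRF8KO MDP, against 37.0% of all 37408 regions in the 4 lists. These shares were not matched for position, and all regions had WT MDP medians of 32.8 and 31.5, much nearer the top.

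Both IRF8KO percentiles lay ahead of both WT percentiles at 180 regions (52.8%), where all regions of the 4 lists gave 18.6%. Both lay behind at 26 (7.63%), where all regions gave 38.1%. These shares too were not matched for position in the WT MDP lists. Over all regions the medians were 38.2 and 35.6 in IRF8KO MDP and 32.8 and 31.5 in WT MDP, a difference of 4.76 in the other direction. Regions of MDP only moved further than the LMPP-MDP regions, by -21.7, and those of LT-HSC, LMPP and MDP by -6.95. Regions of LMPP, MDP and CDP moved by 10.5 and those of MDP and CDP only by 4.15. The 3 sets absent from CDP thus stood closer to the top of the IRF8KO lists and the 2 sets present in CDP further from it. The same 3 sets were also the lower ones in WT MDP. Their mean WT medians were 66.9 (LMPP-MDP), 69.0 (MDP only) and 63.0 (LT-HSC, LMPP and MDP). Those of the 2 sets present in CDP were 40.3 (LMPP, MDP and CDP) and 50.2 (MDP and CDP only). The part of WT position in these shifts was not tested. The difference between sets was not tested.

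**Figure D3:**
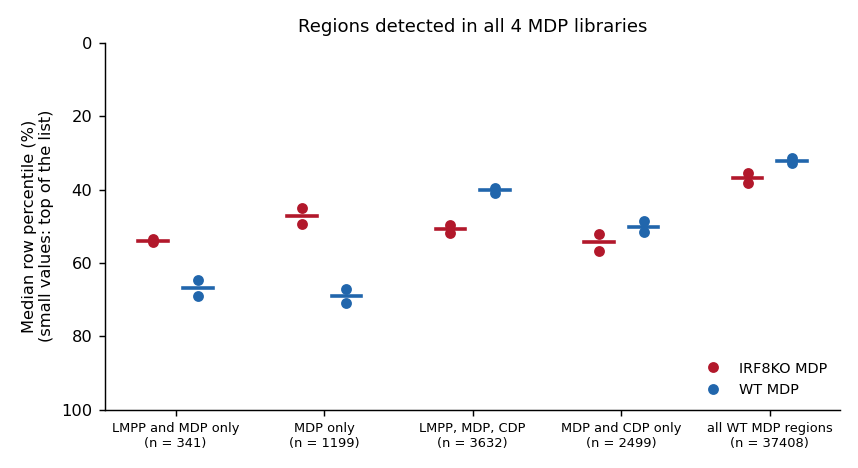
Median row percentile in each IRF8KO MDP library (red points) and each WT MDP library (blue points), over regions found in all 4, with a line at the mean of 2 libraries and the top of the list at the top of the axis. LMPP-MDP regions lie at 54.4 and 53.5 in IRF8KO and 69.1 and 64.7 in WT, MDP-only regions shift the same way, and the sets present in CDP shift the other way.

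The best placed members found in both IRF8KO libraries show this order one by one. A region 204 kb from Plscr5, a gene of the phospholipid scramblase family (chr9:91981427-91982773), had 8.04 and 9.28 in IRF8KO MDP, 19.2 and 20.2 in WT MDP and 29.6 and 36.1 in LMPP. One 13.8 kb from Hs1bp3 (chr12:8357093-8358092) had 21.3 and 21.7 in IRF8KO MDP, 43.7 and 32.8 in WT MDP and 18.1 and 19.6 in LMPP. One 256 kb from the adhesion molecule gene Sdk2 (chr11:114322454-114323329) had 18.9 and 23.9 in IRF8KO MDP and 28.2 and 28.6 in WT MDP. At all 3 both IRF8KO values lay ahead of both WT values.

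The region at the start of the noncoding gene Gm13481, 357 kb from the activin receptor gene Acvr2a (chr2:48455825-48457421), had 14.5 and 9.89 in IRF8KO MDP and 24.1 and 25.4 in WT MDP. One 86.4 kb from Olfm3 (chr3:115211523-115212779) had 23.0 and 28.7 in IRF8KO MDP and 46.8 and 42.9 in WT MDP. The nearest CDP peak was 326 kb from it and the nearest LT-HSC peak 307 kb. A region 451 kb from the anion exchanger gene Slc4a3 (chr1:76009510-76011632) was near the top of the LMPP lists at 11.5 and 5.19, and had 24.5 and 21.4 in IRF8KO MDP and 68.7 and 46.5 in WT MDP. At these 3 too the groups did not overlap.

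The groups were also apart at 2 more of the 10 best members. A region inside Gnaq, which encodes a G protein alpha subunit (chr19:16318159-16319073), had 21.9 and 21.8 in IRF8KO MDP and 34.1 and 28.2 in WT MDP. One 138 kb from Triqk (chr4:12768967-12769661) had 34.4 and 25.7 in IRF8KO MDP and 51.4 and 45.4 in WT MDP. The order was turned at a region 510 kb from Klhl1 (chr14:97028156-97029116), with 63.3 and 94.5 in IRF8KO MDP and 34.7 and 33.6 in WT MDP. Its neighbour 9.84 kb away (chr14:97038959-97041015), also a member, had 21.4 and 24.5 in IRF8KO MDP and 37.3 and 22.3 in WT MDP, where the groups overlapped.

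Few LMPP-MDP regions lay at promoters, and many lay far from any protein-coding gene. Gene spans here leave out noncoding genes and the segments of antigen receptor genes. Of the 517, 24 (4.64%, 3.14 to 6.81) were within 1 kb of an end of a protein-coding gene, against 14.8% of all merged regions. Inside the span of such a gene were 248 (48.0%), against 55.2% of all. No protein-coding gene lay within 100 kb of 90 regions (17.4%, 14.4 to 20.9), against 8.58% of all. For regions of LMPP only that share was 15.5%, for MDP only 9.42% and for LMPP, MDP and CDP 8.97%. The 20 within 1 kb of a start site made 4.03% of 496, against 13.4% of all regions, 3.70% of regions of LMPP only and 3.69% of MDP only. The median distance to a start site was 33.6 kb, against 33.4 kb for LMPP only, 23.6 kb for MDP only and 17.7 kb for all. In median distance to a start site, and in the share far from protein-coding genes, the regions were thus nearer to those of LMPP only than of MDP only. The share within 1 kb of a start site did not separate the sets. In detection without IRF8 they were like those of MDP only. There LMPP-only regions are no comparison, since the rule leaves them without a peak in WT MDP.

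**Figure D4:**
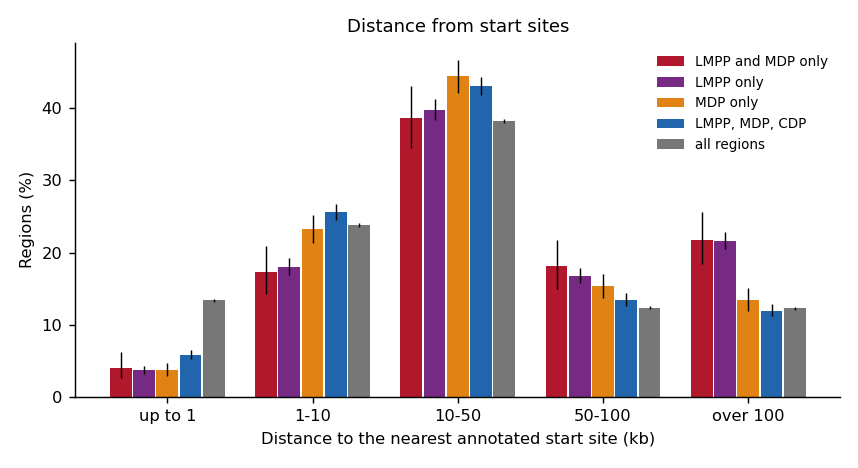
Percent of regions (vertical axis, from 0) in 5 bins of distance to the nearest annotated start site in kb (horizontal axis), for LMPP-MDP regions and 4 other sets, with Wilson 95% intervals as bars. LMPP-MDP regions lie over 100 kb away in 21.8% of cases and LMPP-only regions in 21.6%, against 13.4% of MDP-only and 12.3% of all regions.

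The stages without these regions had other peaks nearby. The nearest peak lay at a median of 9.73 and 10.2 kb in CDP and 18.8 and 11.1 kb in LT-HSC. A CDP peak lay within 1 kb of 27 and 30 regions without overlapping them, and an LT-HSC peak within 1 kb of 15 and 25. Members themselves were sometimes close to each other, with 11 pairs of neighbours at most 20 kb apart.

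Of the 517 regions, 427 had a protein-coding gene within 100 kb, and these fell to 408 genes, so clusters were rare. Only 15 genes had more than 1 region, 4 of them with 3. Mrps28, a gene of the mitochondrial ribosome, had 3 members among 14 regions. The one at chr3:8746423-8747935 had 28.1 and 31.4 in IRF8KO MDP and 45.5 and 38.5 in WT MDP, and the one 4.08 kb away (chr3:8741474-8742345) was found in IRF8KO replicate 1 alone, at 70.7. Rgs8, a regulator of G protein signalling, had 3 among 14, of which chr1:153602371-153603336 had 33.4 and 46.8 in IRF8KO MDP and 84.5 and 66.1 in WT MDP. At both genes IRF8KO lay ahead of WT at the region of best percentile.

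Prdm2, which encodes a histone methyltransferase, had 3 among 25, all in both IRF8KO libraries. Its region 7.61 kb from the gene (chr4:143099374-143100191) had 15.98 and 16.2 in IRF8KO MDP, 29.2 and 26.0 in WT MDP and 54.6 and 56.4 in LMPP. Prim2, the large subunit of DNA primase, had 3 among 33, all inside the gene, of which 2 were in both IRF8KO libraries and 1 (chr1:33563496-33564668; 65.8 and 56.4 in WT MDP) in neither. The region at chr1:33495806-33496686 had 38.1 and 40.4 in IRF8KO MDP and 49.4 and 43.9 in WT MDP.

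The other 11 genes had 2 members each, and at 8 of them both were in both IRF8KO libraries. At Mcm3ap, which takes part in mRNA export, both lay inside the gene 1.14 kb apart. The first (chr10:76486046-76487075) had 23.2 and 17.2 in IRF8KO MDP and 52.0 and 78.5 in WT MDP. The second (chr10:76488212-76489830) had 55.5 and 58.6 in IRF8KO MDP and 50.4 and 78.5 in WT MDP, so IRF8KO lay ahead of WT at the first and the groups overlapped at the second.

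At Dio2, the deiodinase that activates thyroid hormone, the region inside the gene (chr12:90734463-90736025) had 25.9 and 19.6 in IRF8KO MDP and 18.9 and 26.8 in WT MDP, which overlapped, and the other (chr12:90722191-90723222) had 77.2 and 87.4 in IRF8KO MDP and 67.7 and 71.2 in WT MDP. At Spry2, an inhibitor of receptor tyrosine kinase signalling, the region 9.08 kb away (chr14:105905251-105906551) had 23.8 and 17.3 in IRF8KO MDP and 52.4 and 52.4 in WT MDP. The other (chr14:105804280-105805836) had 58.3 and 41.2 in IRF8KO MDP and 74.7 and 49.1 in WT MDP. At Lama4, a laminin gene, one region (chr10:38916039-38916745) had 37.6 and 41.0 in IRF8KO MDP and 73.9 and 78.4 in WT MDP, and the other (chr10:38928895-38929944) had 33.04 and 32.4 in IRF8KO MDP and 57.6 and 93.9 in WT MDP. IRF8KO thus lay ahead of WT at both Lama4 regions and the first Spry2 region, the genotypes overlapped at the other Spry2 region, and IRF8KO lay behind WT at the other Dio2 region.

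Crispld2, the matrix metalloproteinase gene Mmp27, the glutaredoxin-like gene Grxcr1 and Cd34 completed the 8. Of the remaining 3, Arhgap32 and the scaffold gene Magi2 each had 1 region in both IRF8KO libraries and 1 in neither, and the glypican gene Gpc5 had 1 in both and 1 in a single library. At 5 further genes the only region was a member. Those at Alg12, a mannosyltransferase gene, and Clca2 were in both IRF8KO libraries, those at Ppp1ccb and the trace amine receptor gene Taar4 in one, and that of the olfactory receptor gene Olfr996 in neither. Distance says nothing of which gene a region acts on.

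Genes of stem and progenitor cells, lineage genes and receptors held LMPP-MDP regions at about the share of other genes. Over 14 lists with 242 genes, 12 of 2784 regions (0.431%) were members, against 0.408% of all regions with a gene within 100 kb. The stem cell list had 5 among 479 (1.04%), at 4 of its 26 genes. Cd34, a surface sialomucin of progenitors, had 2, both in both IRF8KO libraries. The one 36.8 kb away (chr1:194901651-194902444) had 74.4 and 71.4 in IRF8KO MDP, 60.9 and 90.7 in WT MDP and 39.7 and 36.6 in LMPP. The one 8.57 kb away (chr1:194929385-194931119) had 61.4 and 25.7 in IRF8KO MDP, 58.6 and 41.6 in WT MDP and 90.6 and 79.6 in LMPP. At both the genotypes overlapped, and the stages stood in opposite order.

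Mecom, a regulator of stem cell self-renewal, and Meis1, a homeobox partner of HOX proteins, each had 1 member inside the gene and in neither IRF8KO library. The Mecom region (chr3:30410672-30411240) had 72.5 and 91.2 in WT MDP and 62.3 and 50.5 in LMPP. The Meis1 region (chr11:18906859-18907490) had 87.5 and 98.4 in WT MDP and 68.9 and 67.1 in LMPP. Both were nearer the end of the list in WT MDP than in LMPP. Runx1, a transcription factor of blood formation, had 1 member among 44 regions (chr16:92581696-92582297), at 88.8 and 99.0 in IRF8KO MDP and 83.7 and 95.8 in WT MDP.

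In the other lists, single regions were members. Bcl11a, a transcription factor of lymphoid and dendritic progenitors that stands in the lymphoid priming and plasmacytoid dendritic cell lists, held one inside the gene (chr11:24087004-24087941). It had 37.7 and 26.5 in IRF8KO MDP, 37.1 and 52.1 in WT MDP and 71.8 and 93.4 in LMPP. Tcf4, which directs plasmacytoid dendritic cell fate, had one 94.4 kb away (chr18:69781894-69782748), at 89.2 and 74.6 in IRF8KO MDP and 89.4 and 56.2 in WT MDP. Mmp8, the neutrophil collagenase gene, had one at 62.5 and 52.3 in IRF8KO MDP and 46.0 and 51.8 in WT MDP. At Bcl11a and Tcf4 the genotypes overlapped, and at Mmp8 the nearest values of the genotypes differed by less than the largest block of rows.

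The mast cell protease gene Cpa3 had a member in both IRF8KO libraries, at 84.6 and 90.3 against 85.1 and 81.0 in WT MDP, and Kdr, a receptor for vascular endothelial growth factor, had one 92.1 kb away, also in both. Foxp1, a forkhead factor gene, had one in IRF8KO replicate 1 alone, at 71.6, and Bcl11b, a T cell factor gene, one in neither, at 78.4 and 60.1 in WT MDP. The monocyte and macrophage list (251 regions) and the conventional dendritic cell list (289) had 0 members, as had the cytokine receptor (267), B cell (162), erythroid (116) and megakaryocyte (114) lists. At the share of all genes, each of these would hold about 1 region or fewer. Irf8 (34 regions), Flt3 (19), Klf4 (15), Cebpa (11), Csf1r (8), Spi1 (8) and Gata2 (8) had 0.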

How the data were processed

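The deposited data were 10 peak lists, 1 per library. The tools were HOMER 4.9 and Bowtie 1.1.2 and the builds GRCm38 and mm10, per the submitters' processing notes. Per the file headers, no control library was used, peaks of 500 bp stood at least 1000 bp apart, the false discovery rate was 0.001, local enrichment had to reach 4-fold, and 1 tag was kept per bp, which gave thresholds of 10 to 13 tags. The deposited score was 1 in every row, and the other deposited columns were start and end positions, so no counts could be tested. The sources used here do not say whether reads were shifted for the transposase.

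Overlap of 1 bp merged the peaks of all lists (chromosomes 1 to 19, X), and a region was detected where a library's peak overlapped it. The best row of a region's peaks in a list, as a percent of the list, was its row percentile. Of the 21631 protein-coding RefSeq genes (GRCm38.p6), the nearest within 100 kb of the centre was assigned, and 32619 start sites came from the RefSeq promoter table, which has none on chromosome 18. The planned exact permutation test of library medians cannot go below 0.333 with 2 against 2 libraries, and the rule used the WT arm, so medians are given without it. Replicate numbers were paired only as an alternative, since no label gives a shared animal or day. Shares have Wilson intervals at 95%. Named were the 20 genes with the most members, the 10 members of best mean percentile, the 5 best in both and in neither IRF8KO library, list genes with a member, 8 fixed genes and the 3 members of worst percentile. Python 3.11.15, pandas 2.3.3, numpy 2.4.6, scipy 1.17.1 and matplotlib 3.10.9 were used, and the merge was tested on simulated data. Alternatives were other merging, trimmed lists, stricter and freer rules, other distances, each replicate left out, and, added after seeing the data, row numbers, blocks of rows, start sites, regions merged from the WT lists alone, bins of row percentile and the Igh locus left out. Members and lists were chosen with earlier results of these data known. Coordinates are 1-based. Motif shares over whole regions were planned but not run, for want of a genome sequence in use here.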

Additional observations from a re-analysis of the deposited data

How the results depend on the processing

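The difference in median percentile, and the excess in detection between percentiles 50 and 100, kept their sign in the settings run. Counts and shares were judged by size alone, and the set itself was sensitive to single libraries. With peaks cut to 200 bp, 22.39% of members were in neither IRF8KO library, just below the 22.43% of all WT MDP regions. In the main setting the members' share was just above. The number of members was 526 to 992 with one replicate left out (992 without LT-HSC replicate 2, 891 without WT MDP replicate 1), 237 with all lists cut to the shortest (31325 rows), 48 in the first 50% of both WT MDP lists and 1780 with LT-HSC free. The percent in both IRF8KO libraries was 59.5 with peaks cut to 200 bp, 70.5 with all lists cut, 74.2 with 9 lists cut to the shortest of them, 95.8 in the first 50%, 56.6 with LT-HSC free and 48.4 to 75.6 with one replicate left out, where 75.6 counts a single IRF8KO library. All regions of WT MDP gave 64.7 at 200 bp, 78.7 with all lists cut, 77.5 with 9 lists cut, 63.3 against the 48.4 without WT MDP replicate 1, and 64.4 against 51.9 without replicate 2. No share of all regions held to the first 50% of both WT MDP lists was computed. The percent in neither was 18.1 with all lists cut (all regions 14.8), 16.4 with 9 lists cut (14.9) and 23.7 with LT-HSC free (19.4). It was 4.17 in the first 50% and 19.96 to 34.0 with one replicate left out (all regions 25.1 beside the 34.0). Within 1 kb of a gene end lay 3.13% with 9 lists cut, 2.08% in the first 50%, 11.2% with LT-HSC free and 4.56% to 6.25% with one replicate left out, and 8.51% within 2.5 kb. Genes with 2 or more members numbered 32 at 200 bp, 6 with all lists cut, 0 in the first 50%, 204 with LT-HSC free and 16 to 70 with one replicate left out. IRF8KO minus WT in median percentile stayed negative in all 20 settings, at -21.6 to -5.95, at -15.1 to -9.67 with one replicate left out, at -13.1 with the middle of each block of rows, and at -13.0 with the replicate block. The excess over all WT MDP regions between percentiles 50 and 75 was 15.6 points at 200 bp, 9.25 with all lists cut, 14.8 with 9 lists cut, 11.2 with LT-HSC free and 15.5 to 25.2 with one replicate left out. Between 75 and 100 it was 13.4, 5.17 with LT-HSC free and 6.98 to 14.4 with one replicate left out. Detection near the threshold of 10 to 13 tags limits these values, and absence of a peak does not show closed chromatin.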

Other observations

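V segments of antigen receptor genes were among the places where LMPP-MDP regions lay, which was noticed after the values were seen. Within 3 kb of a V segment were 8 of the 517 regions (1.55%), against 0.274% of regions of LMPP only, 0.272% of MDP only, 0.284% of LMPP, MDP and CDP, and 0.164% of all. At the immunoglobulin heavy-chain locus (chromosome 12, 113258768 to 116009954), 6 of 157 regions were members. Each overlapped an Ighv segment, the exons that supply the variable domain of antibodies. They were Ighv11-2, Ighv1-9, Ighv1-11, Ighv1-42, Ighv1-63 and Ighv1-81. The last 5 were in both IRF8KO libraries and Ighv11-2 in neither.

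The Ighv1-42 region (chr12:114936840-114937490) had row percentiles of 41.3 and 47.8 in IRF8KO MDP, 74.4 and 55.8 in WT MDP and 63.6 and 46.8 in LMPP. The Ighv1-63 region (chr12:115495341-115496075) had 50.01 and 50.8 in IRF8KO MDP, 67.8 and 57.9 in WT MDP and 69.1 and 87.7 in LMPP. The Ighv1-9 region had 63.1 and 49.2 in IRF8KO MDP and 98.5 and 74.9 in WT MDP. At these 3, IRF8KO lay ahead of WT. The genotypes overlapped at Ighv1-11 (87.8 and 94.0 in IRF8KO MDP, 94.3 and 62.5 in WT MDP) and Ighv1-81 (94.3 and 58.9, 88.0 and 83.5). A region 792 bp from Ighv1-86 was in 1 IRF8KO library, and one over the T cell receptor segment Trbv5 (chr6:41062120-41063257) in both, at 53.1 and 30.8 against 81.2 and 67.0 in WT MDP. Of the 157 regions of the heavy-chain locus, IRF8KO MDP held 69 and 79 and WT MDP 100 and 94. LT-HSC held 16 and 41, LMPP 90 and 83, and CDP 81 and 76. Over all merged regions too IRF8KO MDP held fewer, with 48661 and 52366 against 59890 and 61966 in WT MDP. V segments are a family of near-identical copies, and reads could be split among them, so that which copy carries a peak is uncertain.

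By chromosome, members made the largest share of regions on chromosome 12 (0.808%), the X chromosome (0.796%) and chromosome 10 (0.632%), and the smallest on chromosome 16 (0.284%).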
